A study of Mus musculus with 6 samples.

Results

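The 7 genes described here are the metallothioneins *Mt1*, *Mt2* and *Mt3*, their metal-sensing regulator *Mtf1*, the zinc exporter *Slc30a1* and the zinc importers *Slc39a4* and *Slc39a10*. They were picked by symbol from the 24393 features of 6 RNA-sequencing count tables, in part because *Mt1* and *Mt2* were already known to be higher with HOXA13 in these libraries. Their values in this contrast are therefore given as a description, without a test. RNA came from undifferentiated KH2 mouse embryonic stem cells, a line that carries a docking site for doxycycline-controlled transgenes. The strain is labelled C57/BL/6 for all 6 libraries. In the 3 HOXA13 cultures human *HOXA13* had been targeted into the cells under doxycycline control, and the 3 control cultures are labelled as control for genotype. The labels list no treatment in either group, and whether these cultures received doxycycline before RNA isolation is not given in the sources used here. Both groups grew in serum medium with LIF, the cytokine that holds these cells undifferentiated, on irradiated 3T3 fibroblasts. The study's methods call the 3 cultures of each group biological replicates, chosen once targeted clones had been tested for induction, without saying whether each is a clone of its own. Every p-value below measures only the spread between these libraries.

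Total counts ranged from 14608681 to 21766589 in control and from 13494135 to 20374341 in HOXA13 libraries. The human HOXA13 feature had 6, 0 and 0 counts in the controls and 4298, 4177 and 2881 in the HOXA13 libraries. All 8 embryonic stem cell markers were detected in every library, with summed levels of 2273 to 3126 CPM (TMM-scaled counts relative to library size) in controls and 3258 to 3346 CPM in HOXA13 libraries. Control libraries differed more among themselves than HOXA13 libraries did, with a median SD over genes of 0.166 against 0.0936 on the log2 CPM scale. Of 13846 genes tested, 3836 passed an adjusted p of 0.05 (27.7%), 14.4% higher and 13.3% lower with HOXA13, and the libraries of the groups did not overlap for 45.7%. Genes on chromosome 1 stood apart as a whole, with a median log2 fold change of 0.38 over 780 genes and 56.3% past the threshold. The source of that shift was not tested.

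Metallothioneins are small cysteine-rich proteins that bind zinc and copper and buffer them in the cytosol. Their transcription follows the free zinc level through MTF1, a zinc-finger factor that enters the nucleus when it binds zinc and occupies short metal response elements in target promoters. MTF1 also drives *Slc30a1*, whose product carries zinc out across the plasma membrane, so a rise in zinc is normally met by more buffering and more export. Transporters of the SLC30 family move zinc out of the cytosol, into vesicles or out of the cell, and those of the SLC39 family move it in. *Mt1* and *Mt2* are used in most tissues, whereas *Mt3* is best known from brain and *Mt4* from squamous epithelia.

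The promoter windows of *Mt1*, *Mt2*, *Mt3* and *Slc30a1* are printed because metal response elements are the sequence by which *Mt1*, *Mt2* and *Slc30a1* are known to answer zinc, with *Mt3*, which zinc is not known to induce in this way, as the neighbour for comparison. Each runs 5′ to 3′ on the gene's strand, which is the plus strand for all 4, from 250 bases before to 50 bases after the RefSeq start (GRCm38.p6). The positions are in mm9, from an exact match to that genome. Capitals mark the letters TGCACNC or TGCGCNC, the core of the element, on either strand.
Mt1 promoter, chr8:96702739-96703038: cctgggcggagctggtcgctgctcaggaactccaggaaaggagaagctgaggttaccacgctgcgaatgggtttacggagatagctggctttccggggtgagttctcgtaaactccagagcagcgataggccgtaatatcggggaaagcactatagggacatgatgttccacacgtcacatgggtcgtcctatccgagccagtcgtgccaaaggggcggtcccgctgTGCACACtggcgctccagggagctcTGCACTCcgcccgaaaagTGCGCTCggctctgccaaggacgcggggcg
Mt2 promoter, chr8:96696268-96696567: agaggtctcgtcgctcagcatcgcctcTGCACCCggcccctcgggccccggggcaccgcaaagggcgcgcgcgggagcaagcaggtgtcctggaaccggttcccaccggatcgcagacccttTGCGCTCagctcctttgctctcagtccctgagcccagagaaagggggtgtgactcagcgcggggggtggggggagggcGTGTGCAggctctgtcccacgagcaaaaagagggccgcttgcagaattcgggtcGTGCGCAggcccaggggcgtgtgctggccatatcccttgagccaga
Mt3 promoter, chr8:96676257-96676556: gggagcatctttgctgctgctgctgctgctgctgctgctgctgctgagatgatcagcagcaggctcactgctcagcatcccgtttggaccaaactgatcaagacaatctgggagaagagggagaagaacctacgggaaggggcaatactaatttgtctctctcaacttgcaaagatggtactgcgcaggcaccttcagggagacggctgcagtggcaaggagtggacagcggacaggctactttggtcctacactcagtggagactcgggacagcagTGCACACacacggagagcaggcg
Slc30a1 promoter, chr1:193730410-193730709: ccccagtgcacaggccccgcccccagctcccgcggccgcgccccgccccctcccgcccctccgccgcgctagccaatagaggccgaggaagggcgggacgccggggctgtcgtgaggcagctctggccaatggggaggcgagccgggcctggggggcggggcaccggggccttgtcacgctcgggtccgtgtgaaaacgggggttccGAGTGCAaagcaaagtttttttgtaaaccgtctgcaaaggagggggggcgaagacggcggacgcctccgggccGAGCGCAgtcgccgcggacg

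Base 251 of each window is the annotated start. The *Mt1* window held 3 matches, at bases 228, 253 and 271, all on the plus strand. In *Mt2* there were 4, at bases 28 and 123 on the plus strand and at 201 and 255 on the minus strand. The *Mt3* window held 1, at base 278, and that of *Slc30a1* held 2 on the minus strand, at bases 208 and 281. No printed match overlapped another. Of 32851 RefSeq windows of 300 bases, 25.7% held at least 1 match, 7.11% at least 2, 1.97% at least 3 and 0.517% at least 4. The *Mt2* window was thus among the richest, while a single match, as in *Mt3*, occurs in a large share of promoters. Among zinc transporters not printed here, the windows of *Slc30a4* and *Slc30a10* held 3, that of *Slc30a2* held 2 and that of *Slc39a2* held 0. The log2 fold changes of *Slc30a4*, *Slc30a2* and *Slc39a2* were -0.05, 2.83 and 2.99. A link between matches and fold changes was not tested. The windows of *Mtf1* and *Slc39a10* did not hold these letters, and no window was at hand for *Slc39a4*. A match describes the sequence and does not show that a factor bound there.

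*Mt1* and *Mt2* were each about 3-fold higher in the HOXA13 libraries, in every library and with little spread. *Mt1* (chr8:96702989-96704225, mm9, plus strand) stood at 257.7, 255.4 and 246.7 CPM in control replicates 1 to 3 and at 740.6, 748.6 and 709.6 CPM in the HOXA13 replicates. The lowest HOXA13 library was 2.75-fold above the highest control. *Mt2* (chr8:96696518-96697467), 6.47 kb upstream of *Mt1*, stood at 527, 530 and 511.6 CPM in controls and at 1555, 1549 and 1580 CPM with HOXA13. Here the lowest HOXA13 library was 2.92-fold above the highest control. In RNA from whole cultures, more cells expressing a gene and more RNA per cell cannot be told apart.

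**Figure D1:**
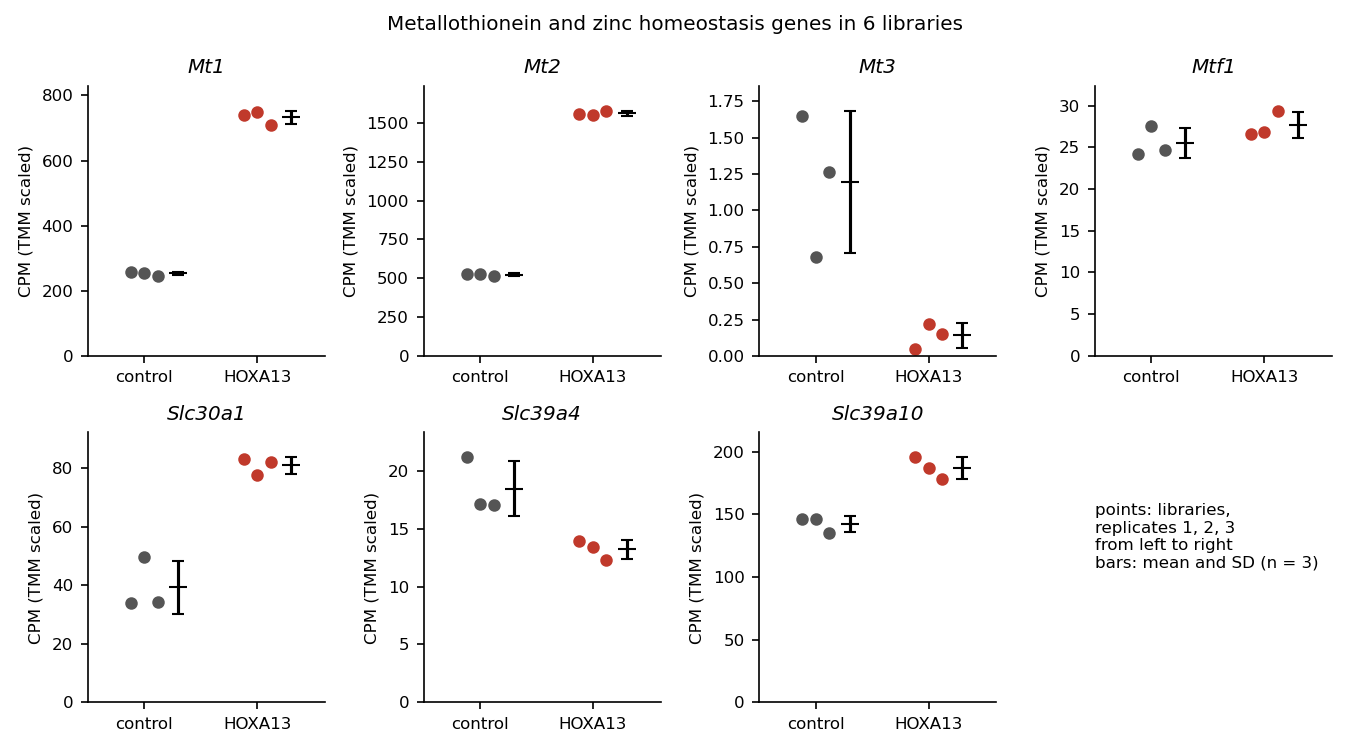
Level of each of the 7 genes in CPM on linear axes from 0, for 3 control and 3 HOXA13 libraries, with 1 point for each library and bars for the group mean and SD. *Mt1* and *Mt2* sit in separate tight groups, 253.3 against 732.9 CPM and 522.9 against 1561 CPM, while the points of *Mtf1* overlap.

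The fitted log2 fold change was 1.53 for *Mt1* (SE 0.06, 2.89-fold) and 1.58 for *Mt2* (SE 0.05, 2.99-fold). Group means were 253.3 ± 5.77 and 732.9 ± 20.6 CPM for *Mt1*, and 522.9 ± 9.85 and 1561 ± 16.5 CPM for *Mt2* (SD, n = 3 each). On the log2 CPM scale the control SDs of 0.033 and 0.027 lay well below the median of 0.166 over genes. That median includes genes with few counts, whose spread holds more counting error. Other genes were about as steady among controls, such as *Gclc* (0.024) and *Gsr* (0.036). Together they took 0.0786 to 0.0808% of all counts in control and 0.222 to 0.224% in HOXA13 libraries.

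*Mt1* and *Mt2* were higher by near-equal factors. *Mt1* gave 32.8% (exact binomial 95% interval 32.1 to 33.5), 32.5% (31.7 to 33.4) and 32.5% (31.8 to 33.3) of the *Mt1* and *Mt2* counts in control replicates 1 to 3. With HOXA13 it gave 32.3% (31.8 to 32.7), 32.6% (32.1 to 33.0) and 31.0% (30.5 to 31.5). Only HOXA13 replicate 3 lay outside the intervals of every control library, and the group means of 32.6 ± 0.18% and 31.95 ± 0.84% overlapped in their spread. These intervals cover counting error only. The transcripts of *Mt1*, *Mt2*, *Mt3* and *Mt4* shared 0 stretches of 75 bases, the read length, with any other protein-coding transcript, so reads of 1 metallothionein could not be counted for another at full match.

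*Mt3* and *Mt4*, the remaining genes of the cluster, were near the limit of detection. *Mt3* (chr8:96676507-96678048), 26.5 kb upstream of *Mt1*, had 37, 10 and 25 counts in controls and 1, 4 and 2 with HOXA13. It was lower in every HOXA13 library than in any control, opposite to its neighbours *Mt1* and *Mt2*. The level fell from 1.20 ± 0.49 to 0.14 ± 0.085 CPM, and 2 of the HOXA13 libraries were at or under 3 counts, the floor set for a library, which equals 0.134 to 0.227 CPM. The counting ratio of control to HOXA13 was 9.23 (95% interval 4.26 to 23.8), and the fitted log2 fold change was -3.10 (SE 0.55). *Mt3* passed the low-count filter through its control counts alone. *Mt4* (chr8:96661104-96662931), not among the 7, had 10, 1 and 2 counts in controls and 12, 17 and 14 with HOXA13. It passed the low-count filter through its HOXA13 counts alone. Its log2 fold change was 1.90 (SE 0.58). With no low-count filter it was 1.92, at an adjusted p of 0.0418 from the quasi-likelihood test of edgeR, Benjamini-Hochberg adjusted, and the counting ratio was 3.69 (1.95 to 7.47). This call did not hold in 7 of 13 alternative fits, among them the replicate block (adjusted p = 0.0855), DESeq2 (0.0502) and the fits without any 1 library other than control replicate 1 (0.0597 to 0.137). Control replicate 1 held most of the control reads, and without it the log2 fold change was 3.19.

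*Mtf1* mRNA, the regulator, showed no separation between groups. *Mtf1* (chr4:124479348-124527044, plus strand) stood at 24.2, 27.5 and 24.7 CPM in controls and at 26.6, 26.9 and 29.4 CPM with HOXA13. Control replicate 2 lay above HOXA13 replicates 1 and 2, so the groups overlapped. Means were 25.5 ± 1.80 and 27.6 ± 1.55 CPM, and the log2 fold change was 0.12 (SE 0.09). MTF1 is known to be controlled largely through zinc binding and entry into the nucleus, which an mRNA level does not measure.

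*Slc30a1*, the plasma membrane exporter and a known MTF1 target, was about 2-fold higher with HOXA13. Levels at chr1:193730646-193737126 (plus strand) were 33.8, 49.9 and 34.5 CPM in controls and 83.2, 77.8 and 82.1 CPM in HOXA13 libraries. Control replicate 2 was the highest control, and the lowest HOXA13 library was still 1.56-fold above it. Means were 39.4 ± 9.08 and 81.0 ± 2.88 CPM, with a log2 fold change of 1.05 (SE 0.14, 2.06-fold). *Slc30a1* lies on chromosome 1, and with each chromosome centred on its own median the log2 fold change was 0.68. Its annotation overlaps a gene on the other strand, *1700034H15Rik*, by 761 bp, and that gene had 14 to 40 counts in any library.

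The importers among the 7 went in opposite directions, and by less. *Slc39a10*, a plasma membrane importer known to be repressed by MTF1 when zinc is plentiful, had 146.5, 146.2 and 135.3 CPM in controls and 195.7, 187.3 and 178.4 CPM with HOXA13 (chr1:46864389-46910891, minus strand). All HOXA13 libraries were higher, with means of 142.7 ± 6.36 and 187.1 ± 8.67 CPM and a log2 fold change of 0.39 (SE 0.07, 1.31-fold). That is close to the chromosome 1 median of 0.38, and with the chromosome centred 0.01 was left. *Slc39a4*, the intestinal zinc importer whose loss causes acrodermatitis enteropathica, had 21.2, 17.1 and 17.0 CPM in controls and 13.9, 13.4 and 12.3 CPM with HOXA13 (chr15:76442815-76447322, minus strand). All HOXA13 libraries were lower, at 13.2 ± 0.81 against 18.4 ± 2.37 CPM, with a log2 fold change of -0.48 (SE 0.12), which lay between -0.54 and -0.37 when 1 library was left out. The median of chromosome 15 was -0.02.

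All 7 genes passed the low-count filter, *Mt3* through its controls alone. For 6 of them the libraries of the groups did not overlap, 4 higher and 2 lower, where that held for 45.7% of all genes. Since they were chosen with this contrast in view, nothing is read from that share. To compare levels between genes, CPM was divided by merged exon length (RPKM). In controls *Mt2* was highest at 940 ± 17.7 RPKM, then *Mt1* at 336 ± 7.66 and *Slc39a10* at 23.9 RPKM. *Slc39a4* at 8.15 and *Slc30a1* at 7.51 RPKM did not differ beyond their spread, nor did *Mtf1* and *Mt3*, the lowest. With HOXA13 the order was *Mt2* (2808 RPKM), *Mt1* (973), *Slc39a10* (31.4), *Slc30a1* (15.5), *Slc39a4* (5.83), *Mtf1* (3.33) and *Mt3*. With HOXA13 every library of *Slc30a1* lay above every library of *Slc39a4*.

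The remaining zinc transporters were described from the whole SLC30 and SLC39 families. Of 21 such genes 17 were tested, 2 rose, 3 fell and 12 did not pass, which is 29.4% called beside 27.7% of all genes, with a median log2 fold change of -0.06 beside 0.00. *Slc39a2*, among those that rose, passed the low-count filter through its HOXA13 counts alone. With no low-count filter the same numbers, 2 and 3, rose and fell. Among exporters, 1 of 7 tested rose and 1 fell. *Slc30a2*, which loads zinc into vesicles and is known for zinc secretion into milk, had 332, 114 and 224 counts in controls and 1514, 1444 and 1160 with HOXA13. No HOXA13 library came near the controls, and the level rose from 11.3 ± 3.53 to 81.3 ± 5.65 CPM (chr4:133899096-133910399). Its log2 fold change was 2.83 (SE 0.20, 7.11-fold, adjusted p = 6.32e-05 by edgeR's quasi-likelihood test), above those of *Mt1*, *Mt2* and *Slc30a1*. It held in all 14 alternative fits, from 2.62 to 3.07.

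*Slc30a7*, which moves zinc into the Golgi, fell slightly, from 38.5 ± 1.55 to 31.7 ± 0.99 CPM (log2 fold change -0.28, SE 0.08, adjusted p = 0.0270 in edgeR), and the call was lost in 5 of 14 alternatives. Those were the replicate block (adjusted p = 0.0673) and the fits without control replicate 3 or without any 1 of the HOXA13 libraries (0.0770 to 0.104). *Slc30a4*, *Slc30a5*, *Slc30a6* and *Slc30a9*, exporters of vesicles, Golgi and other compartments, had log2 fold changes between -0.11 and -0.01 and did not pass. *Slc30a3*, the synaptic vesicle exporter, had a log2 fold change of 0.51 (adjusted p = 0.364) that moved with the controls. Control replicate 1 had 4.68 CPM against 1.43 and 2.07 in replicates 2 and 3. The value was 1.16 without control replicate 1 (adjusted p = 0.00574, edgeR), 0.22 without replicate 2 (adjusted p = 0.638) and 0.34 without replicate 3 (adjusted p = 0.629). *Slc30a8* and *Slc30a10* had too few counts to be tested.

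**Figure D2:**
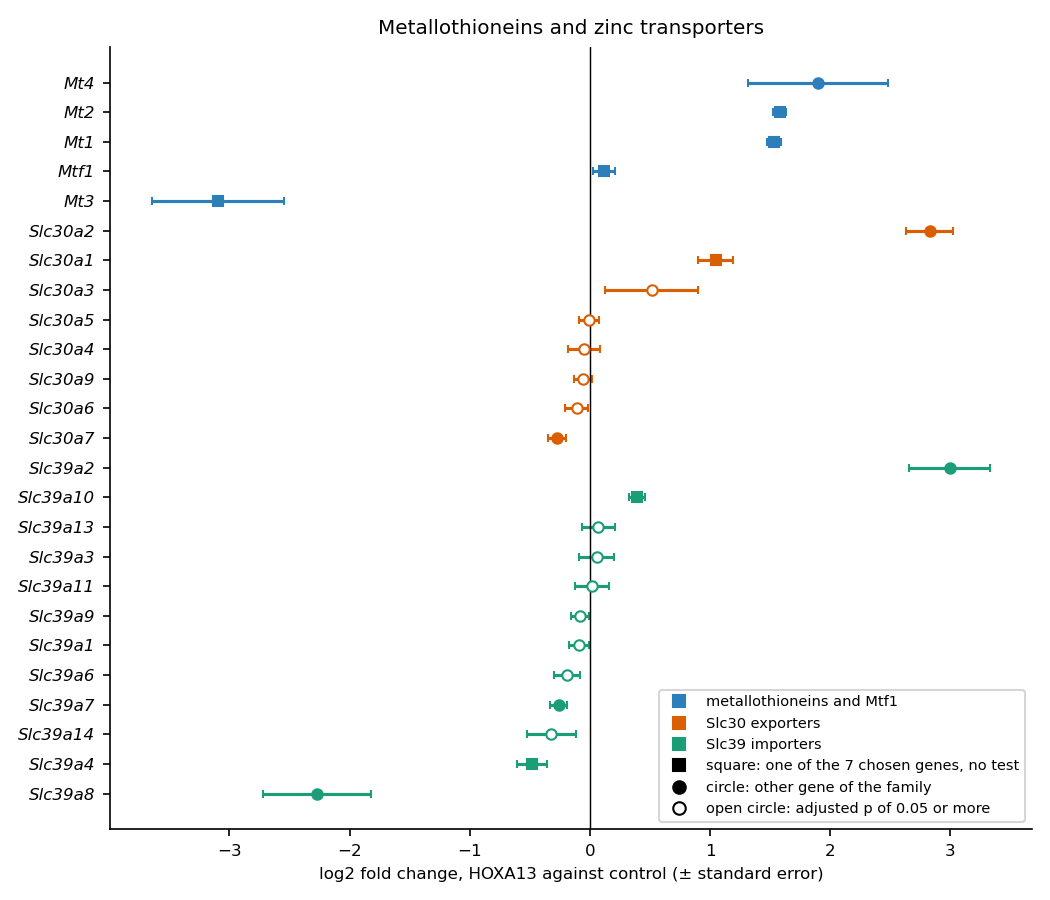
Log2 fold change of HOXA13 over control for the metallothioneins, *Mtf1* and each tested SLC30 and SLC39 gene, with bars of 1 SE from the edgeR fit, squares for the 7 genes, which carry no test, and open circles for an adjusted p of 0.05 or more. Most transporters lie near 0, and *Slc30a2* (2.83), *Slc39a2* (2.99) and *Slc39a8* (-2.27) lie farthest from it among the genes outside the 7.

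Among importers outside the 7, 1 of 10 tested rose and 2 fell. *Slc39a2*, a plasma membrane importer, had 10, 6 and 5 counts in controls and 73, 40 and 40 with HOXA13. Its counts were low but separate, with a counting ratio of 8.12 (5.13 to 13.5) and means of 0.37 ± 0.10 and 2.98 ± 0.75 CPM. The log2 fold change was 2.99 (SE 0.34). *Slc39a2* passed the low-count filter through its HOXA13 counts alone, and with no such filter the value was 3.00 (adjusted p = 0.000156 in edgeR). *Slc39a2* (chr14:52512564-52516420) overlaps *Mettl17* on the same strand by 151 bp, and *Mettl17* itself had a log2 fold change of 0.27 (adjusted p = 0.289). The chromosome 14 median was also 0.27.

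*Slc39a8*, which imports zinc, manganese and cadmium, fell from 5.89 ± 3.53 to 1.23 ± 0.22 CPM. Counts were 219, 42 and 100 in controls and 28, 18 and 17 with HOXA13. The controls were widely spread and replicate 1 was highest, but every control exceeded every HOXA13 library on the CPM scale. Its log2 fold change was -2.27 (SE 0.45, adjusted p = 0.00778 in edgeR), and it held in 14 alternatives, from -2.60 to -1.70. *Slc39a7*, which releases zinc from the endoplasmic reticulum, fell from 203.4 ± 10.4 to 169.8 ± 9.50 CPM (log2 fold change -0.26, SE 0.07, adjusted p = 0.0253). That call was lost under the replicate block (adjusted p = 0.0540) and without control replicate 3 or any 1 of the HOXA13 libraries (0.0648 to 0.0955). The annotation places a processed transcript, *Gm20427*, on the same strand over 3306 bp of *Slc39a7*, and its part in these counts was not tested. *Slc39a14*, a zinc and iron importer, had -0.32 (adjusted p = 0.283), and its controls were pulled apart by replicate 2, at 229.6 CPM against 124.6 and 137.0. It lies on chromosome 14 and fell with that chromosome centred (-0.57, adjusted p = 0.00522), whereas without control replicate 2 the value was -0.0094 (adjusted p = 0.934). *Slc39a6* had -0.19 (adjusted p = 0.230), which became -0.30 without control replicate 1 (adjusted p = 0.00963) and -0.11 without control replicate 2 (adjusted p = 0.433). *Slc39a1*, *Slc39a3*, *Slc39a9*, *Slc39a11* and *Slc39a13* had log2 fold changes from -0.09 to 0.07 and did not pass, and *Slc39a5* and *Slc39a12* were not tested.

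Of 15 neighbouring genes with a start within 500 kb of that of *Mt1*, 12 were tested, and 2 fell and 10 did not pass. That is 16.7% called and lower, beside 13.3% of all genes lower. The nearest tested neighbours, *Nup93*, a nuclear pore gene 35.5 kb downstream, and *Bbs2*, a cilium gene 80.3 kb upstream, had log2 fold changes of 0.03 and -0.10. Those that fell lay farther out. *Gnao1*, a G protein subunit, had -0.72 (SE 0.21, adjusted p = 0.0397 in edgeR). Neither call was kept without control replicate 3 or any 1 of the HOXA13 libraries. The call of *Gnao1* was lost without any 1 library other than control replicate 2 (adjusted p 0.0606 to 0.150). The median of chromosome 8 was -0.01.

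**Figure D3:**
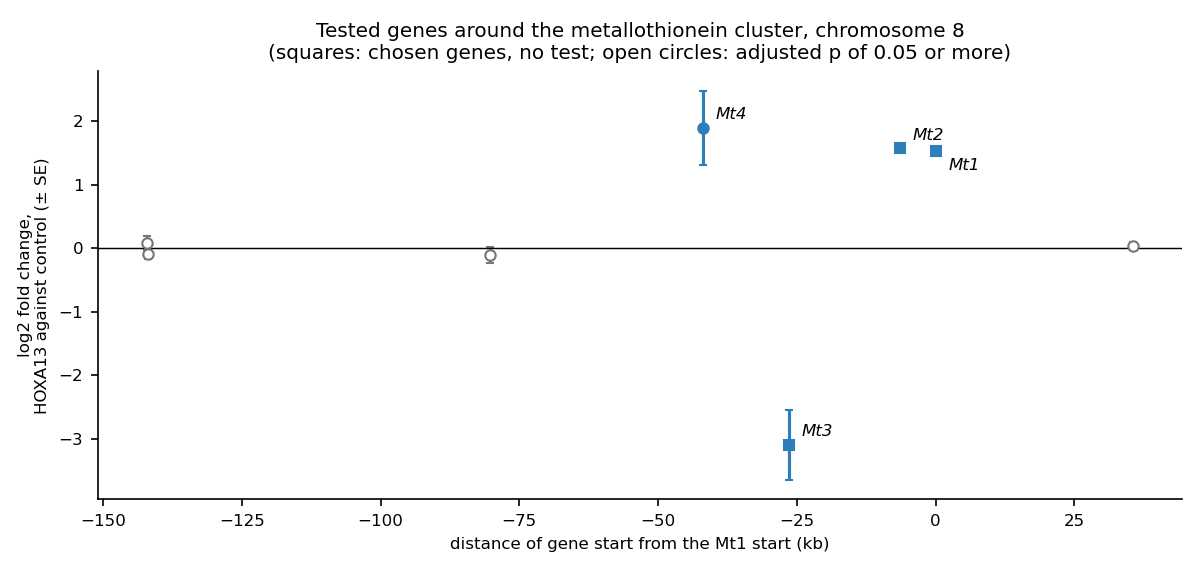
Log2 fold change of HOXA13 over control (bars of 1 SE, edgeR) against distance in kb from the *Mt1* start, for tested genes within 150 kb, with squares for *Mt1*, *Mt2* and *Mt3*, which carry no test, and filled circles for an adjusted p under 0.05. *Mt1*, *Mt2* and *Mt4* lie above 0 and *Mt3* lies below it, while *Nup93* (0.03) and *Bbs2* (-0.10), the nearest neighbours outside the cluster, lie near 0.

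Lists of genes known to answer metals or stresses that also induce metallothioneins were read from the same edgeR fit, in which 27.7% of all genes passed. The share that passed was 40% of the other MTF1 targets, 22.2% of the copper, 42.9% of the iron, 20% of the NRF2, 30% of the heat shock and 71.4% of the glucocorticoid list, each of 5 to 10 genes. Of 5 other known MTF1 targets, *Gclc*, which makes the first step of glutathione synthesis, rose (0.28, SE 0.07, adjusted p = 0.0210) and *Ndrg1* fell (-0.53, SE 0.12, adjusted p = 0.0131). The remaining 3 did not pass, and the median of the list was -0.01. Of 9 copper handling genes, the mitochondrial copper chaperone *Cox17* rose (0.38, adjusted p = 0.0119) and the copper exporter *Atp7b* fell (-0.86, adjusted p = 0.0213), with a list median of -0.09. Of 7 iron handling genes, *Fth1*, the ferritin heavy chain, rose from 432.1 to 625.5 CPM (0.53, adjusted p = 0.00107), and the transferrin receptor gene *Tfrc* fell (-0.24, adjusted p = 0.0376). The iron exporter gene *Slc40a1*, on chromosome 1, rose (1.12, adjusted p = 0.0277) but did not pass with the chromosome centred (adjusted p = 0.132). Leaving out control replicate 3 or any 1 of the HOXA13 libraries removed the calls of *Gclc* (adjusted p 0.0538 to 0.0720, and 0.0513 with library size alone), *Atp7b* (0.0606 to 0.0965), *Tfrc* (0.0732 to 0.143, and 0.0712 under the replicate block) and *Slc40a1* (0.0512 to 0.106). *Cox17* did not pass without HOXA13 replicate 1 (0.0533), nor *Ndrg1* without HOXA13 replicate 2 (0.0601) or 3 (0.0598), while *Fth1* kept its call in every alternative run.

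Of 10 targets of the oxidative stress factor NRF2, 2 rose: *Gsr*, glutathione reductase (0.36, adjusted p = 0.00269), and *Gclc*, already counted above. The other 8 did not pass, among them *Hmox1* with a log2 fold change of 0.05, and the list median was 0.07. Of 10 heat shock genes, 7 did not pass and the list median was 0.14. The 3 that rose were *Hsp90aa1* (0.62 on the edgeR fit, adjusted p = 0.00212), *Hspe1* (0.63, adjusted p = 0.00642) and *Hspd1* (0.51, adjusted p = 0.00623). The latter pair share a promoter region on chromosome 1, and *Hspd1* did not pass with that chromosome centred (0.14, adjusted p = 0.127), while *Hspe1* went to 0.26 (adjusted p = 0.0390). Of 7 tested glucocorticoid-induced genes, *Errfi1* (0.54), *Klf9* (0.54) and *Dusp1* (0.34) rose, while *Fkbp5* (-0.42, adjusted p = 0.00233) and *Tsc22d3* (-0.72), which are among the usual markers of glucocorticoid action, fell. The list median was -0.04, and its members thus moved both ways. Without control replicate 3 or any 1 of the HOXA13 libraries *Tsc22d3* (adjusted p 0.0896 to 0.108) and *Klf9* (0.0933 to 0.160) did not pass, nor did *Klf9* with library size alone (0.0570).

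The 5 genes whose levels over the 6 libraries lay closest to the mean profile of *Mt1* and *Mt2* were *Gata3*, *Scmh1*, *Mex3b*, *Tmem70* and *Magi3*. Likeness was the root mean square distance of centred log2 CPM, which was 0.0554, 0.0600, 0.0607, 0.0609 and 0.0687. Their log2 fold changes of 1.53 to 1.63 follow from that choice. *Tmem70* lies on chromosome 1, and its value ranged from 1.19 to 1.58 over the alternative fits. *Gata3* encodes a transcription factor of trophoblast and T cells, *Scmh1* a Polycomb protein and *Mex3b* an RNA-binding protein.

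Markers of other cells that the dishes could hold were counted beside the metallothioneins. The 16 fibroblast markers, which the feeder cells express, summed to 4924, 7512 and 7388 CPM in controls and 6915, 8100 and 8631 CPM with HOXA13, and none was at 0. The groups overlapped. Of these markers 13 lay above 0, with a list median of 0.14, and *Col3a1* was highest at 0.50 (adjusted p = 0.0782). *Col3a1* and the next highest, *Col5a2* (0.37), lie on chromosome 1, with its median of 0.38. One passed the threshold, *Pdgfra*, which fell (-0.80, SE 0.20, adjusted p = 0.0192), or 6.25% of the list, where 27.7% of all genes passed. The replicate block called 2 of them higher, DESeq2 called 1, and the fits without control replicates 1 and 2 called 1 and 2. The 12 extraembryonic endoderm markers summed to 75.4 to 109 CPM in controls and 57.7 to 60.6 CPM with HOXA13, with *Ttr* at 0 in every library. Of 8 tested, 37.5% passed, and *Gata6* (1.80) and *Sox7* (2.14) rose and *Lama1* (-2.22) fell. *Lama1* alone had 38.8, 70.5 and 37.7 CPM in controls and 10.1, 10.7 and 10.7 CPM with HOXA13. The lower sum of this list with HOXA13 thus rests on *Lama1*. Of the 8 embryonic stem cell markers 50% passed, beside 27.7% of all genes, and *Nanog* (0.57), *Esrrb* (0.78), *Sox2* (0.54) and *Sall4* (0.22) rose. Without control replicate 3 or any 1 of the HOXA13 libraries *Esrrb*, *Sox2* and *Sall4* did not pass (adjusted p 0.0580 to 0.134), nor did *Sall4* under the replicate block (0.0657) or *Esrrb* in DESeq2 (0.0567), and with library size alone neither *Sox2* (0.0563) nor *Sall4* (0.116) passed. *Pdgfra* did not pass without control replicate 3 or HOXA13 replicates 1 or 2 (0.0719 to 0.0899), nor *Sox7* without any 1 of the HOXA13 libraries (0.0517 to 0.0586). The part of these cell types in the metallothionein levels was not tested.

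**Figure D4:**
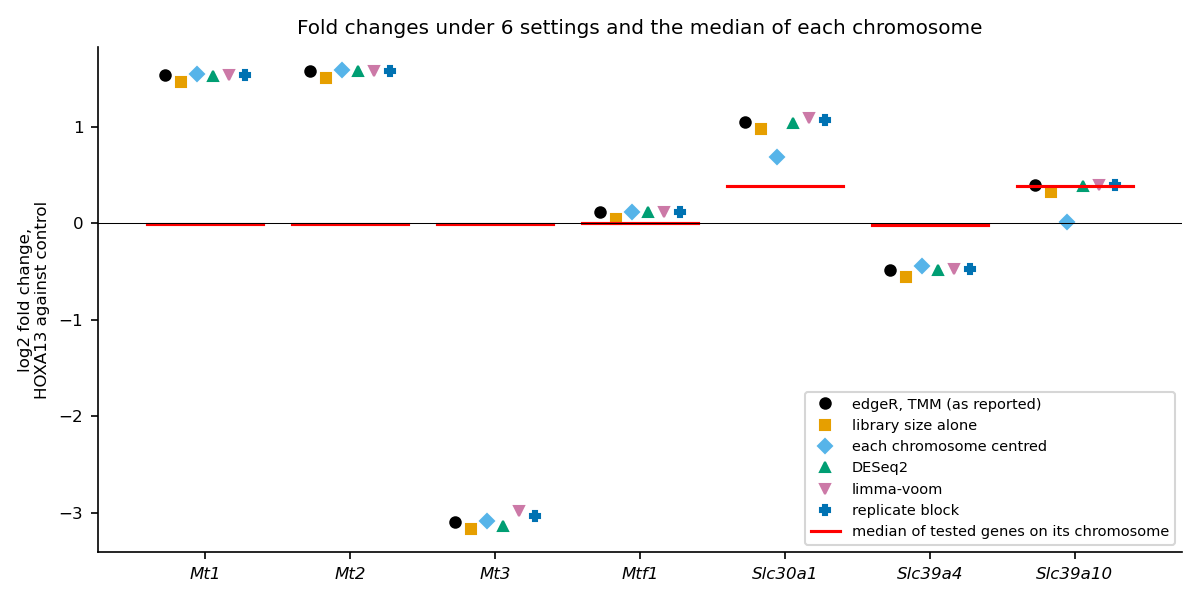
Log2 fold change of HOXA13 over control for the 7 genes under 6 ways of processing the counts, with 1 symbol for each setting and a red line at the median of tested genes on the gene's chromosome. *Mt1* stays between 1.46 and 1.54 and *Mt2* between 1.51 and 1.59, while *Slc30a1* and *Slc39a10*, on chromosome 1, drop to 0.68 and 0.01 when each chromosome is centred.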

How the data were processed

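RNA was sequenced from 3 control and 3 HOXA13 cultures of KH2 cells. The authors made strand-aware libraries from poly(A) RNA, mapped the reads to mm9 and counted them by gene; their processing notes name bcl2fastq 2.17, TopHat2 2.0.14 and HTSeq 0.6.1p1. The deposited values are whole-number counts without normalization, 1 table for each library. The annotation, strand setting and treatment of reads with several matches are not given in the sources used here, so reads of overlapping genes may be split between them.

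From these counts, genes were filtered with filterByExpr (minimum count 10, minimum total 15), scaled by TMM and tested with edgeR 4.0.16 in R 4.3.3 (glmQLFit and glmQLFTest), HOXA13 against control, with Benjamini-Hochberg adjustment over all 13846 genes tested and a threshold of 0.05. CPM used TMM-scaled library sizes, and mean ± SD is over 3 libraries. Interval bounds are exact and, like the floor of 3 counts, cover counting error only. Positions and exon lengths came from the GENCODE mm9 annotation, which placed 22228 of the 24393 features, and promoter windows came from RefSeq (GRCm38.p6), which held 24 of the 28 metallothionein and zinc transporter genes and 6 of the 7 members. The scripts were tested on simulated counts. Alternatives were RLE factors, library size alone, no filter, at least 10 counts in every library, a replicate block, DESeq2 1.42.0, limma-voom (limma 3.58.1), each chromosome centred on its median, and leaving out each library.

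The members and the lists were chosen with earlier results of these data known. The genes named are the 7 members, *Mt4*, every SLC30 and SLC39 gene, up to 4 genes past the threshold with the smallest p from each other list, the neighbours of *Mt1* within 500 kb that passed, and the 5 genes, among those averaging 1 log2 CPM or more, closest to the profile of *Mt1* and *Mt2*. *Hmox1*, *Nup93*, *Bbs2*, *Mettl17*, *Gm20427*, *Ttr*, *Col3a1*, *Col5a2*, *1700034H15Rik* and *Klf9* were named outside that rule, after their values were seen. The values of 1 gene under this rule are not reported here.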

Additional observations from a re-analysis of the deposited data

How the results depend on the processing

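Outside the 7 genes, which carry no test, 684 alternative fits were made of 49 named genes. Of these, 591 kept the direction and the side of the threshold, 80 no longer passed, 3 newly passed, and 10 changed sign, all on genes that passed in neither fit. The latter were *Slc39a3* (-0.016), *Slc39a11* (-0.055) and *Slc39a13* (-0.0017) with library size alone. With 1 library left out, ranges that crossed 0 were -0.20 to 0.070 for *Slc30a4*, -0.059 to 0.063 for *Slc30a5*, -0.021 to 0.15 for *Slc39a3*, -0.12 to 0.15 for *Slc39a11* and -0.075 to 0.19 for *Slc39a13*. The number of genes called was 3836 and ranged from 2038 to 5007 when 1 library was left out. With library size alone, 1576 genes were higher and 2500 lower, against 1994 and 1842 with TMM, the median of all genes moved to -0.07, and the log2 fold changes were 1.46 for *Mt1*, 1.51 for *Mt2* and 0.32 for *Slc39a10*. With each chromosome centred, that of *Slc30a1* was 0.68 and that of *Slc39a10* was 0.015. The cause of the chromosome 1 shift was not tested. Of the zinc transporters outside the 7 genes, 5 passed, and 3 to 7 did when a library was left out. Of the other lists 24 genes passed (12 to 34 with a library left out), and of the neighbours of *Mt1* 2 (0 to 2). With a minimum of 10 counts in every library, *Mt3*, *Mt4* and *Slc39a2* had no value.

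Correlations of same-numbered libraries' deviations were -0.02, -0.05 and 0.02, and not every library correlated best with its own number. With 3 libraries in each group this cannot decide whether replicates were paired, which the sources used here do not say. With the replicate block 3172 genes were called, and 3 zinc transporters passed in place of 5. Depth limits *Mt3*, *Mt4* and *Slc39a2*, where a library's floor of 0.134 to 0.227 CPM is close to the lower group's level.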

Other observations

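Several genes of this group, at low and at higher levels, differed widely among the control libraries, in values noticed after the comparison was made. Control replicate 1 was highest and replicate 2 lowest among controls for *Mt3* (1.65, 0.68 and 1.26 CPM in replicates 1 to 3), for *Slc39a8* (9.77, 2.85 and 5.05 CPM), for *Slc30a3* (4.68, 1.43 and 2.07 CPM) and for *Slc30a2* (14.8, 7.75 and 11.3 CPM). *Slc30a1* (33.8, 49.9 and 34.5 CPM) and *Slc39a14* (124.6, 229.6 and 137.0 CPM) went the other way, with replicate 2 highest. The controls of *Mt1* ranged only from 246.7 to 257.7 CPM and those of *Mt2* from 511.6 to 530 CPM.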
